A study of Caenorhabditis elegans with 2 samples.

Results

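AMP-activated protein kinase (AMPK) is the energy sensor of eukaryotic cells, and its Caenorhabditis elegans subunits are encoded by the 9 genes described here. They are the catalytic alpha subunit genes aak-1 and aak-2 and the scaffolding beta subunit genes aakb-1 and aakb-2. The other members are the gamma subunit genes aakg-1 to aakg-5. The 9 genes, of 19973 protein-coding genes in all, were chosen by name, and a window of the gene body plus 10000 bp on each side was searched for SEM-4 ChIP-seq summits. The list was proposed with results of these peaks known, in which a summit near aakg-1 was among the strongest. Counts are therefore descriptions and carry no test.

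The kinase is a complex of 1 alpha, 1 beta and 1 gamma subunit. It is activated when AMP rises relative to ATP and when an upstream kinase, LKB1 in mammals and PAR-4 in the worm, phosphorylates the alpha subunit. In C. elegans, AMPK is known for its part in survival of starvation, in the dauer larva and in lifespan. SEM-4, the protein mapped here, belongs to the Spalt group of zinc-finger DNA-binding factors and is best known from neuronal, vulval and rectal cell fates.

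The experiment measured eGFP-tagged SEM-4 in whole L2 larvae of mixed sex, in strain OP57, genotype unc-119(ed3) III with the tagged transgene wgIs57. The antibody field of the labels reads sem-4 while the tagged protein is named elsewhere in them, so whether the antibody bound the tag or SEM-4 itself is not settled, and untagged SEM-4 may or may not be part of the signal. There were 2 libraries and a single group, and the labels number them as biological replicates. Allele and transgene are common to both, and nothing in the labels tells whether the worms came from separate cultures or in which cells the transgene is active. In whole animals, strong occupancy in few cells and weak occupancy in many cannot be told apart.

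The authors' peak lists on assembly ce11 were used. The thresholded list, called reproducible here, held 2490 peaks, which were the 2490 of highest signal among the 30000 of the pooled relaxed list, so that its lowest signal was 40.3 and its median 57.7. The deposited name of the pooled relaxed list calls it peaks and background, so a summit listed only there need not mark occupancy. Each replicate alone had a relaxed list of 30000 peaks. Signal is the authors' value per peak on a scale of its own in each list, so ranks (1 is the highest signal) are used between lists. The lists hold no read counts, so depth is unknown and no counting error can be attached. Positions are 1-based, on ce11, with gene models of Ensembl release 115, and all 9 genes were also found by symbol in RefSeq.

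Reproducible SEM-4 summits lay in the windows of 7 of the 9 AMPK genes. The same rule gave 37.6% of all protein-coding genes. The 7 windows held 16 summits, of which 6 belonged to aakg-1, 3 to aak-2, 2 each to aakb-1 and aakg-5, and 1 each to aakb-2, aakg-2 and aakg-3. The windows of aak-1 and aakg-4 held none. Relaxed pooled summits were listed in all 9 windows, against 85.8% of all protein-coding genes. Of the 16 summits, 8 were intergenic, 7 lay in introns and 1 in an exon of a non-coding gene, while among all reproducible summits 63.8% were intergenic, 20.7% intronic and 10.1% in such an exon. None of the 16 was in a 5' UTR, against 3.01%. All 7 intronic summits were inside aakg-1 or aak-2. A summit within the gene body was found for these 2 genes of 9, against 2.77% of all protein-coding genes.

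**Figure D1:**
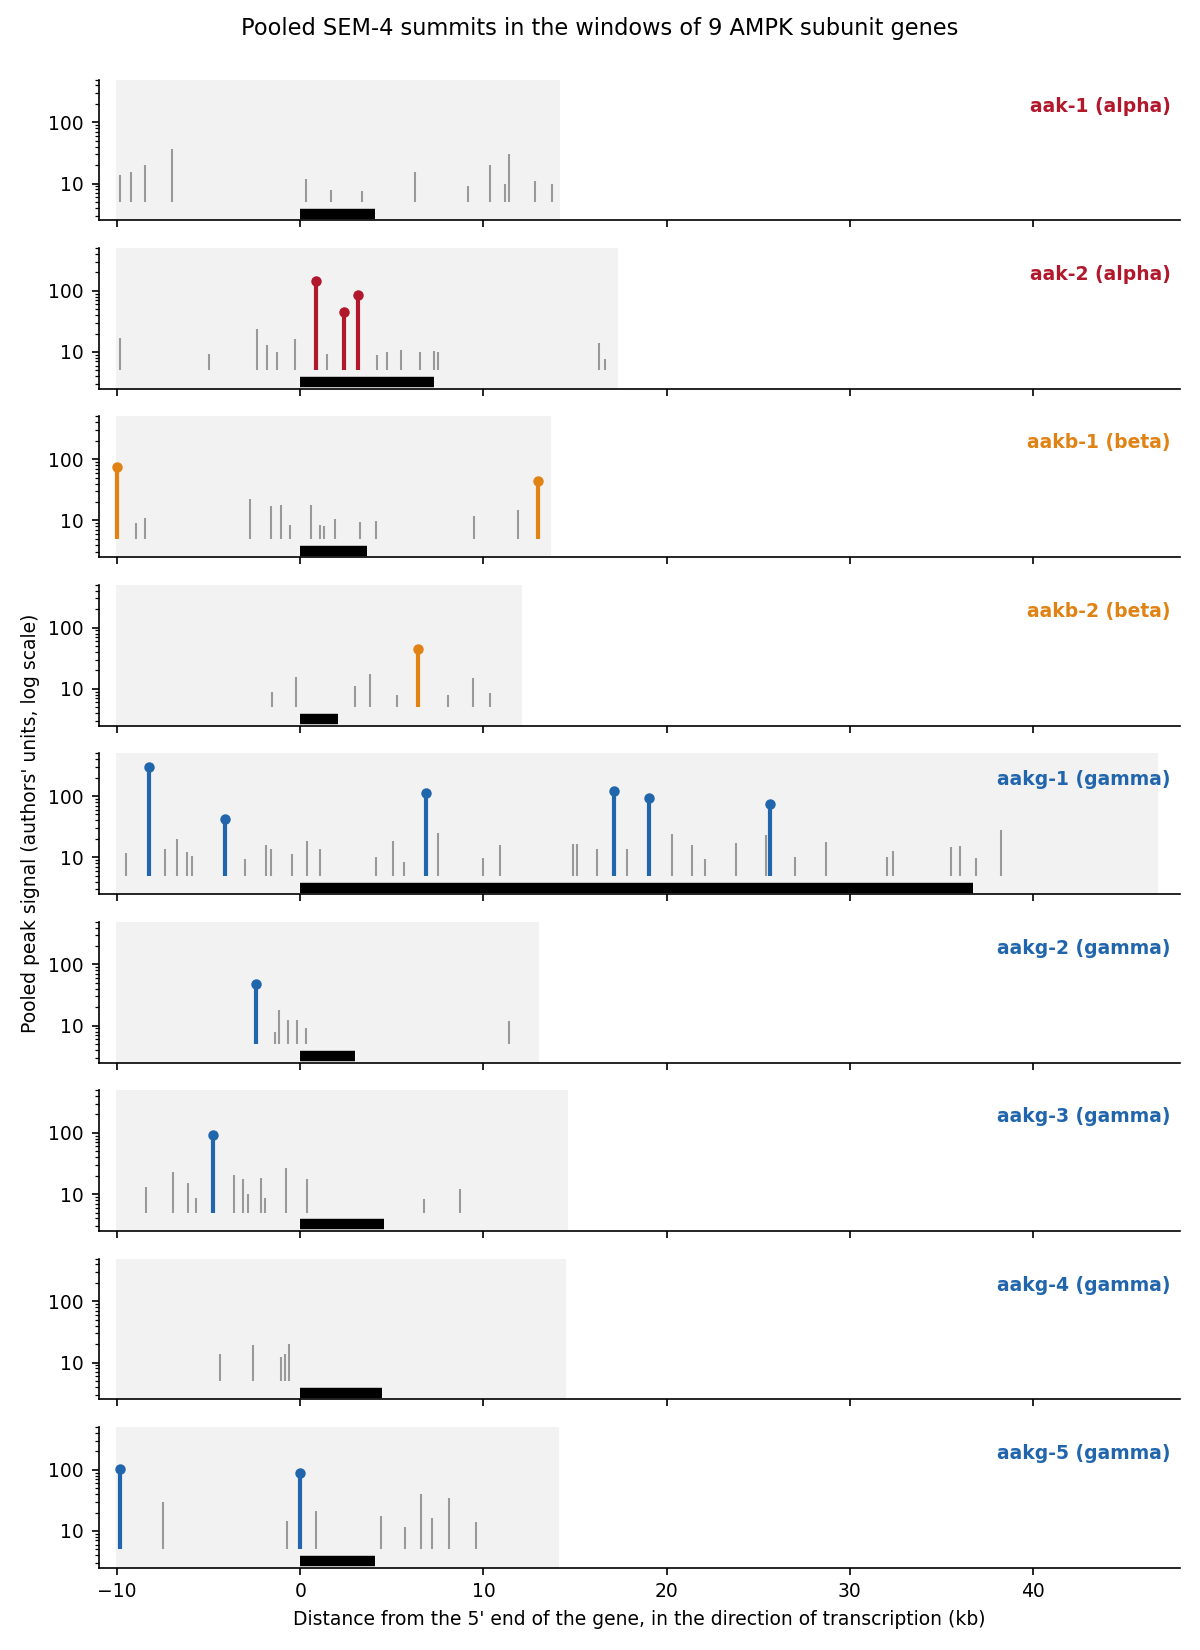
Pooled SEM-4 summits in the 9 windows. The horizontal axis is distance in kb from the 5' end of each gene along its direction of transcription, the vertical axis is pooled signal on a log scale, black bars are gene bodies and grey shading is the window. Coloured stems with dots are reproducible summits, of which aakg-1 has 6 and aak-2 has 3, and grey stems are other relaxed summits.

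Not every summit in a window belongs to its AMPK gene by position. The nearest protein-coding start was that of the AMPK gene itself for 11 of the 16 summits, in aak-2, aakg-1, aakg-3 and aakg-5, and that of a neighbouring gene for 5. A nearest start to a reproducible summit was thus held by 4 of the 9 genes, against 10.2% of all protein-coding genes. The window of aakg-1 holds no other protein-coding gene, so its summits could hardly be nearest to another start.

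The gamma subunit gene aakg-1 (WBGene00013732, III, 12538664 to 12575401, minus strand) had the strongest summit and the most. It spans 36738 bp with 7 annotated transcript starts. No other protein-coding gene lies in its window of 56738 bp, the nearest being sql-1, 10611 bp from one end, and gldi-8, 20592 bp from the other. The top summit was intergenic at 12583681, which is 8280 bp upstream of the 5'-most start. Its pooled signal was 302.7 at rank 17. Replicate 1 gave 150.9 at rank 41 and replicate 2 gave 148.4 at rank 12, with the summit 0 and 14 bp away. Both libraries therefore placed it among their highest peaks. Its peak was 194 bp wide, while 8.15% of reproducible peaks were narrower than the usual 350 bp.

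The other 5 aakg-1 summits were spread over the gene and its upstream side. The next upstream summit, at 12579494, lay 4093 bp before the 5'-most start and was the weakest, with 42.8 at rank 2223 (18.9 at rank 4521 in replicate 1, 18.0 at rank 2473 in replicate 2). Inside the gene, the summit at 12568514 stood in a stretch of 9563 bp free of aakg-1 exons. It had a pooled signal of 111.4 at rank 287, with 83.7 at rank 178 in replicate 1 and 34.9 at rank 604 in replicate 2. It was thus the aakg-1 summit in the gene body that stood highest in replicate 1.

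A single stretch of 11917 bp free of aakg-1 exons, from 12548082 to 12559998, held the remaining 3 summits of aakg-1. The one at 12558263 had 118.7 at rank 239, with ranks 331 and 172 in replicates 1 and 2 (65.0 and 55.9). The one at 12556375 had 94.0 at rank 437, with ranks 480 and 433 (56.5 and 40.1), the closest pair of ranks among the 16 summits. The one at 12549763 had 72.7 at rank 745, with ranks 1068 and 554 (38.4 and 36.2). Small non-coding genes on either strand, Y111B2A.32 and Y111B2A.33, have exons within 50 bp of this last summit, and the start of Y111B2A.33 was 43 bp away. The 6 summits stretched over 33918 bp, with 1888 to 10980 bp between neighbours.

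**Figure D2:**
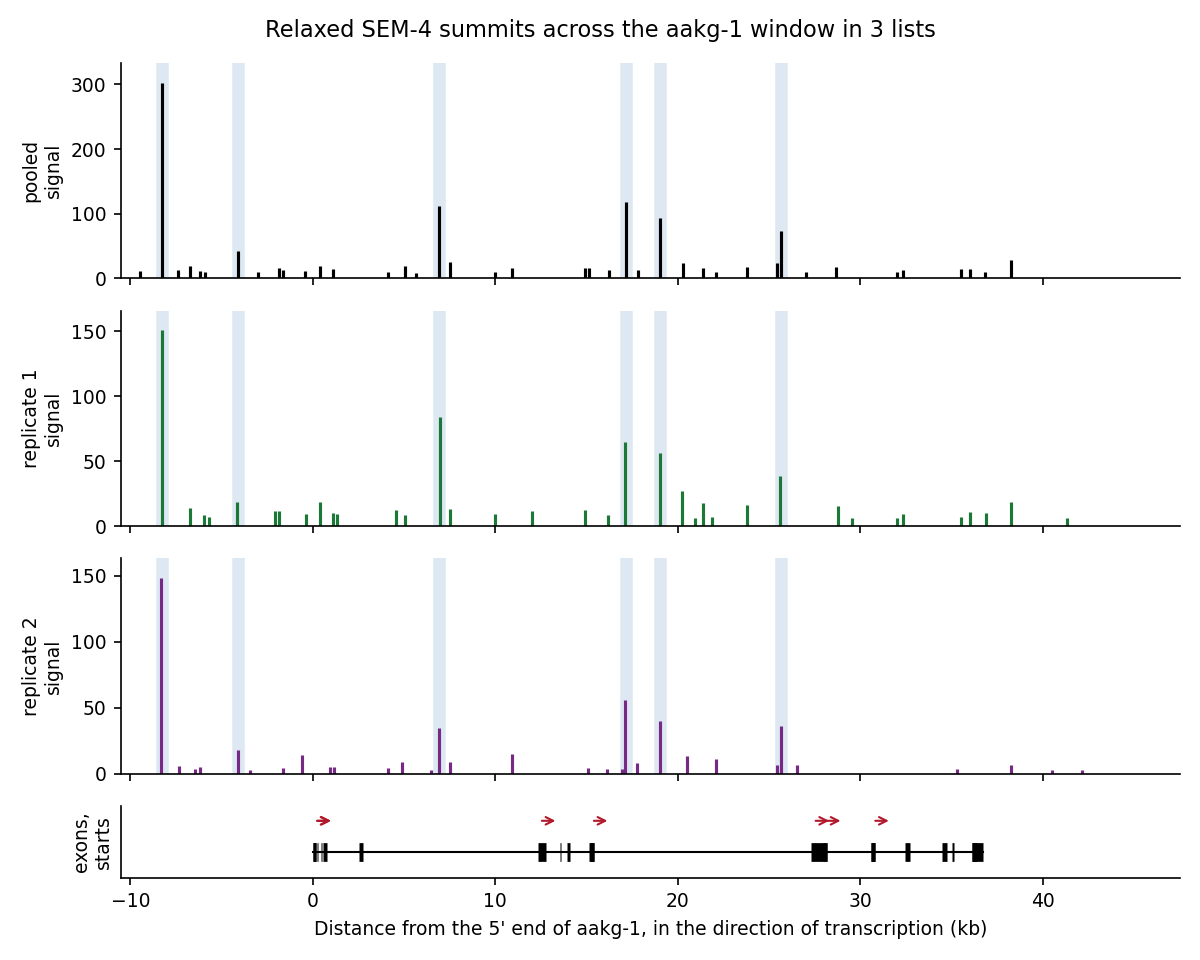
Relaxed summits in the aakg-1 window. The upper panels give signal (each list on its own linear scale) in the pooled list, replicate 1 and replicate 2 against distance in kb from the 5' end of the gene along transcription, and blue bands mark the 6 reproducible summits. The lowest panel shows exons as black blocks and annotated starts as red arrows. In all 3 lists the highest stem is the one 8280 bp upstream.

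None of the 6 lay in a promoter window of aakg-1, a stretch that begins 1000 bp before each annotated start and ends 200 bp after it. The distances to its nearest start ran from 1682 to 8280 bp. The best pooled summit in an aakg-1 promoter window had 16.6 at rank 10357. It was a relaxed one, 56 bp upstream of the start at 12560229. Replicate 2 had an overlapping peak at rank 18092, with its summit 67 bp upstream. The overlapping peak of replicate 1, at rank 9247, had its summit 282 bp upstream of that start. This was nearer to another relaxed pooled summit, 259 bp upstream. The best promoter summit of replicate 2 alone was another one, 566 bp upstream of the 5'-most start, with 14.2 at rank 3762. Beyond the window edge, a further reproducible summit stood 10492 bp past the 3' end, with 59.1 at rank 1177. It lay close to the neighbouring gene sql-1, which is 10611 bp from that end of aakg-1. Having 6 or more reproducible summits in the window was a property of 33 protein-coding genes (0.165%), and of 2 of the 26 whose windows are at least as long as that of aakg-1 (7.69%), aakg-1 included.

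The catalytic subunit gene aak-2 (WBGene00020142, X, 16796087 to 16803398, plus strand), known for its part in lifespan, held 3 reproducible summits. All 3 lay in 1 stretch of 3475 bp free of aak-2 exons. It ran from the exons at the 5' end of the gene to the start of its short transcript at 16799707. The strongest, at 16796973, had a pooled signal of 141.7 at rank 148, with 88.7 at rank 155 in replicate 1 and 69.1 at rank 92 in replicate 2. It lay 884 bp downstream of a start of the long transcripts, in a peak 131 bp wide, and the small non-coding gene T01C8.9 starts 201 bp from it. The replicate 1 summit was 94 bp away from the pooled one, the largest shift among the 16, and that of replicate 2 was 10 bp away.

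The summit at 16799238 was the one nearest to an aak-2 start, 469 bp upstream of the short transcript and inside its promoter window. Its signal was 84.1 at rank 559, with 36.0 at rank 1234 in replicate 1 and 49.1 at rank 248 in replicate 2. Between these lay a weaker summit at 16798477 with 44.4 at rank 2076, and ranks of 2621 and 3503 in the replicates, outside the top 2490 of each. At the 5' starts of the long transcripts, a relaxed pooled summit at rank 11021 was listed, 307 bp upstream. Replicate 2 had an overlapping peak of signal 16.6 at rank 2863, and replicate 1 listed none.

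The other catalytic subunit gene, aak-1 (WBGene00019801, III, 8756990 to 8761090, minus strand), had 14 relaxed pooled summits in its window and no reproducible one. The best lay 230 bp upstream of mtss-1, a mitochondrial single-stranded DNA-binding protein gene, with 37.0 at rank 2939. The overlapping peaks with the nearest summits ranked 2873 and 7029 in replicates 1 and 2. Another overlapping peak of replicate 2, with its summit 432 bp upstream of mtss-1, had 14.35 at rank 3721. The best one nearest to an aak-1 start had 11.9 at rank 17100, 340 bp downstream of the start. The nearest reproducible summit was 15373 bp from the gene, with 114.8 at rank 261, and its nearest start was that of pdhk-2, a pyruvate dehydrogenase kinase gene. Within the alpha pair, then, reproducible summits were listed in the gene body of aak-2 and not in that of aak-1.

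The beta subunit genes had reproducible summits in their windows, all of them closer to other genes. For aakb-1 (WBGene00010115, X, 13755769 to 13759391, plus strand), both summits lay near the edges of the window. The upstream one, at 13745781, was 9988 bp from the gene and just inside the limit, with 74.3 at rank 715, and ranks 1014 and 517 in replicates 1 and 2 (39.5 and 37.2). Its nearest start was that of the nuclear hormone receptor gene nhr-71, 1534 bp away. The downstream one, at 13768725, was 9334 bp from the gene, 143 bp upstream of nkb-3, a sodium-potassium ATPase beta subunit gene, and inside an exon of the non-coding gene F55F3.9. It had 43.4 at rank 2160, with rank 7325 in replicate 1 and 760 in replicate 2 (14.5 and 31.6), the most unequal ranks of the 16. The next summit outside the aakb-1 window was 16284 bp away with 55.9.

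For aakb-2 (WBGene00012928, III, 11237143 to 11239204, plus strand), the only reproducible summit, at 11243596, was 4392 bp downstream of the gene. It was 1524 bp upstream of rsks-1, the ribosomal protein S6 kinase gene of the TOR pathway, which is a nutrient-sensing pathway that AMPK restrains. Its signal was 44.7 at rank 2049, with rank 4028 in replicate 1 and 773 in replicate 2 (20.1 and 31.4). A relaxed summit of 15.6 at rank 11386 lay 204 bp upstream of the aakb-2 start. It was in the space aakb-2 shares with the divergent gene Y47D3A.14, whose start was nearer, 71 bp away.

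The gamma subunit gene aakg-5 (WBGene00011276, II, 9971035 to 9975125, minus strand) was the only one of the 9 with a reproducible summit at its 5'-most start. This summit, at 9975135, lay 10 bp upstream, with 90.1 at rank 476, and ranks 853 and 384 in replicates 1 and 2 (42.5 and 41.9). With aak-2, it made 2 of 9 genes with a reproducible summit in the promoter window, against 8.71% of all protein-coding genes. A second summit, at 9984979, was 9854 bp upstream of aakg-5 and 3119 bp upstream of sdz-38, its nearest start. It had 104.5 at rank 335, and ranks of 407 and 306 in replicates 1 and 2 (60.6 and 45.6). The aakg-5 window also held the relaxed summit closest to the threshold, 124 bp upstream of the DNA replication gene psf-1, with 39.9 at rank 2548 (rank 1505 in replicate 1 and 17051 in replicate 2).

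The gene aakg-3 (WBGene00021527, X, 2976448 to 2981027, plus strand) had 1 reproducible summit, at 2971677, 4771 bp upstream of its start. The signal was 90.7 at rank 472, with 63.7 at rank 357 in replicate 1 and 23.5 at rank 1485 in replicate 2. Among protein-coding genes the start of aakg-3 was the nearest, but the microRNA gene cel-mir-34 starts 1829 bp from the summit, which lies upstream of it. With starts of all annotated genes, 3 AMPK genes instead of 4 held a nearest start, and aakg-3 was the one lost. At its own start, aakg-3 had a relaxed summit of 27.0 at rank 4939, 766 bp upstream, with ranks 6881 and 7333 in the replicates.

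The gene aakg-2 (WBGene00020633, X, 16866046 to 16869031, minus strand) had 1 reproducible summit, at 16871448, in the space it shares with the divergent gene T20F7.1. It was 2417 bp upstream of aakg-2 and 1464 bp upstream of T20F7.1, with 47.8 at rank 1828, and ranks 1580 and 4214 in replicates 1 and 2 (32.5 and 13.2). Each replicate alone listed a stronger peak nearer to T20F7.1. It had 39.9 at rank 991 in replicate 1 and 23.3 at rank 1505 in replicate 2, with summits 231 and 227 bp upstream of that gene. The pooled list held no peak there, its nearest summit being 1233 bp away, and 0.254% of the peaks shared by the top 2490 of both replicates lacked a pooled peak.

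The gene aakg-4 (WBGene00020135, X, 2314894 to 2319338, minus strand) had the fewest pooled summits of the 9, with 5, and none was reproducible. The best stood 627 bp upstream of its 5'-most start with 20.2 at rank 7690. Replicate 1 listed it with 15.1 at rank 6815, and replicate 2 listed no overlapping peak. The nearest reproducible summit was 26756 bp away, with 41.8 at rank 2319.

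**Figure D3:**
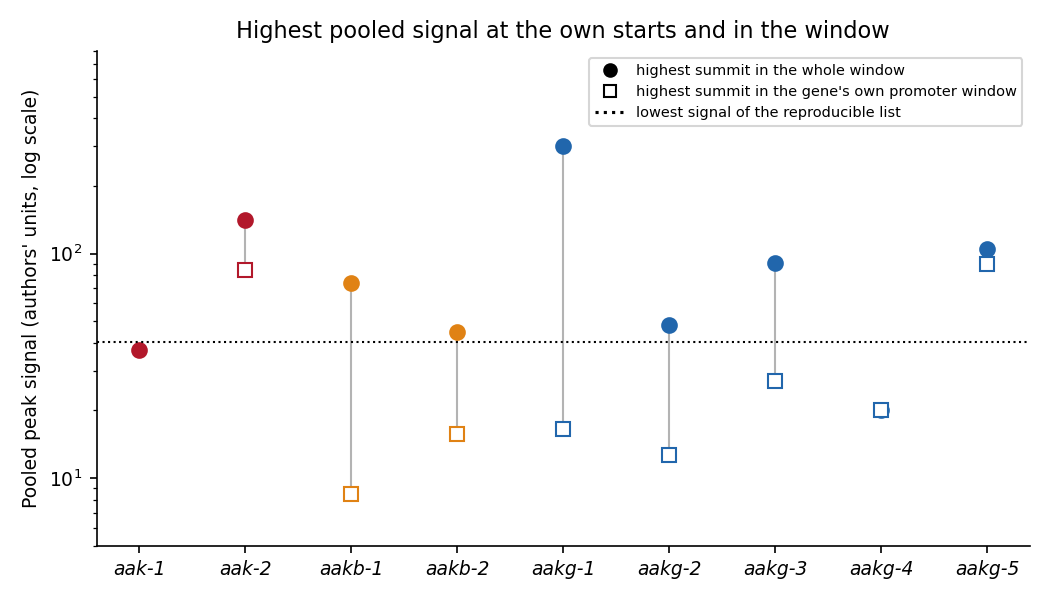
Highest pooled signal in each gene's whole window (filled circles) and in its own promoter window (open squares), on a log scale, with the lowest signal of the reproducible list, 40.3, as a dotted line. Only aak-2 and aakg-5 have a square above the line, aak-1 has no summit in its promoter window, and circle and square coincide for aakg-4.

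At their own starts, 8 of the 9 genes had a relaxed pooled summit in the promoter window, against 38.4% of all protein-coding genes. Of these, 6 were below the reproducible list, with signals from 8.47 for aakb-1 (rank 26689) to 27.0 for aakg-3. Their −log10 q values were 0.19 for aakb-1, 0.49 for aakg-2, 0.84 for aakb-2 and 0.95 for aakg-1. For aakg-4 and aakg-3 they were 1.49 and 2.38, against 3.7 for the promoter summits of aak-2 and aakg-5. The pooled relaxed list includes background, so these 6 need not mark occupancy. The aakb-2 summit was nearer to the start of Y47D3A.14. The replicates did not both list an overlapping peak for the promoter summits of aakb-1, aakg-2 and aakg-4.

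All 16 reproducible summits overlapped a relaxed peak in each replicate, as did 99.4% of all reproducible peaks. Within the top 2490 of both replicates were 11 of the 16, against 60% of all reproducible peaks. The 5 others were the weaker summits of aak-2, aakg-1 and aakb-1 and those of aakb-2 and aakg-2. In 12 of the 16 the rank was better in replicate 2, against 45.5% of all reproducible peaks found in both replicates, and in 4 it was better in replicate 1. The larger rank was 1.11 to 9.64 times the smaller, with a median of 2.09, against 1.89 for all reproducible peaks found in both. The pooled signal of 11 of the 16 was above the median of the reproducible list.

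**Figure D4:**
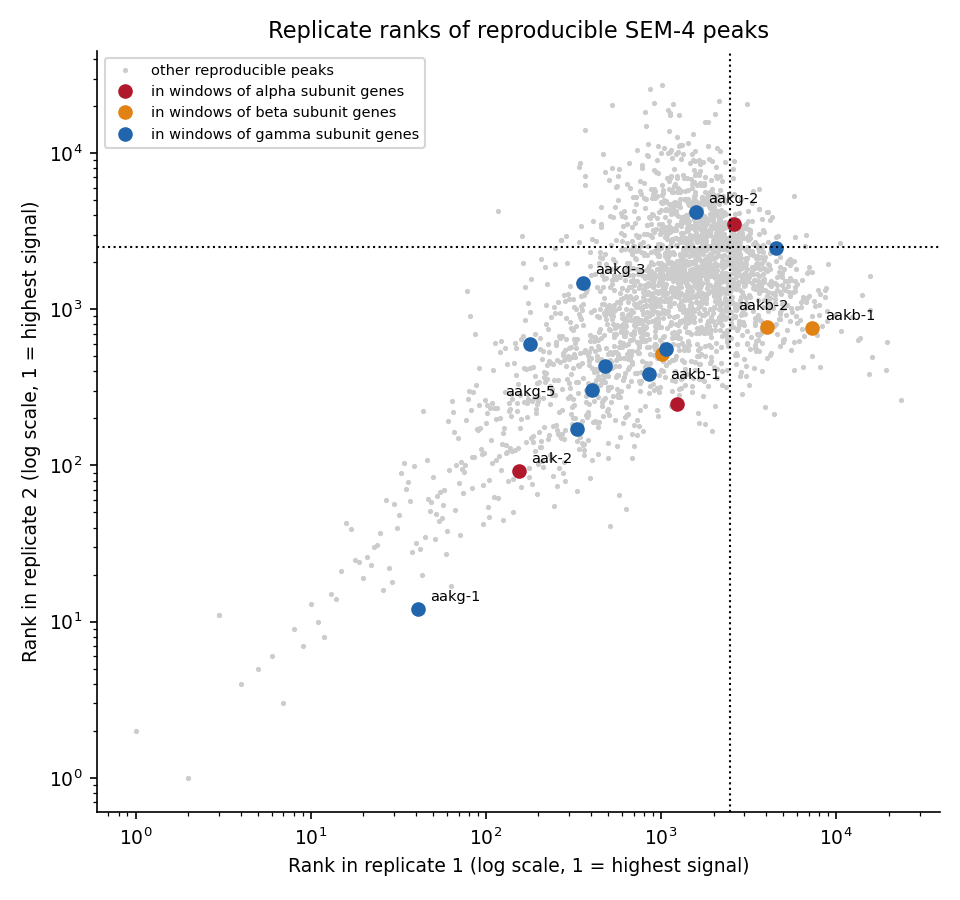
Rank of each reproducible peak in replicate 1 and replicate 2, both on log scales, with the summits of AMPK windows in colour by subunit, those of highest signal per gene and of aakb-1 named, and other reproducible peaks in grey. Dotted lines mark rank 2490, and 11 of the 16 coloured points lie inside both lines. Of the coloured points, the aakg-1 summit at ranks 41 and 12 is the lowest, and the aakb-1 summit at ranks 7325 and 760 is the most unequal.

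The sequences at 4 of the 16 summits shared the palindrome CACGTG within 50 bp of the summit on either side, a hexamer present in 4.5% of all reproducible summit windows. These were the strongest summits of aakg-1 and aak-2 and the only ones of aakg-2 and aakg-3. They are shown for that shared letter string, on the plus strand of ce11, 5' to 3'. For aakg-1 (chrIII:12583577-12583770) and aak-2 (chrX:16796916-16797046) the whole peak is given, and for aakg-2 (chrX:16871398-16871498) and aakg-3 (chrX:2971627-2971727) the summit with 50 bp on either side. The bases are those of RefSeq's WBcel235 assembly, which is ce11. Capitals mark matches on either strand to CACGTG, to the purine repeat GAGAGA, to the SEM-4 site forms TTGTCT and also TTGTGT, and to the GATA-type word TGATAA.
aakg-1: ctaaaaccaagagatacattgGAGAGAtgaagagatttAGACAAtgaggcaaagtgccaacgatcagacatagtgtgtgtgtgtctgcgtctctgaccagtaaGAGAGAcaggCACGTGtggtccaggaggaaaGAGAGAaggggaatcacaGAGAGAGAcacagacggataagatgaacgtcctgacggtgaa
aak-2: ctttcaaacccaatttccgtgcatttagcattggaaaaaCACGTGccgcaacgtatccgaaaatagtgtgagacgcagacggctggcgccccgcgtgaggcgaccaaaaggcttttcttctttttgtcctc
aakg-2: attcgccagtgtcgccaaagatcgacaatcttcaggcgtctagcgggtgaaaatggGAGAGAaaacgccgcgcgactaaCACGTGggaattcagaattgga
aakg-3: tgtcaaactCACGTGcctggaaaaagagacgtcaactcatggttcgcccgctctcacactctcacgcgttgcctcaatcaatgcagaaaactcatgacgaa

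The nearest base of CACGTG was 9 bp from the aakg-1 summit, 13 bp from that of aak-2, 29 bp from that of aakg-2 and 36 bp from that of aakg-3. The peak of aakg-1 also held GAGAGA on the plus strand at several places, and 1 of these covered the summit base. GAGAGA was present around 7 of the 16 summits, against 30.8% of all reproducible summit windows. Besides the aakg-1 and aakg-2 sequences above, these included the summit between aakb-2 and rsks-1 (chrIII:11243546-11243646) and the distal aakg-5 summit (chrII:9984929-9985029). Both are shown because they carry GAGAGA in overlapping repeats, read here as TCTCTC on the plus strand.
aakb-2 to rsks-1: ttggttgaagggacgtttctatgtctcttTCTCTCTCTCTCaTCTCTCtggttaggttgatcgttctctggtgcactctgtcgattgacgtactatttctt
aakg-5 distal: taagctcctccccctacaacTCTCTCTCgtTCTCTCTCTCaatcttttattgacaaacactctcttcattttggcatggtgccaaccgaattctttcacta

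The site described for SEM-4, TTGTCT or TTGTGT, lay in that window around 2 of the 16 summits, against 18.6% of all reproducible summits. Each form was found at 1, against 8.35% for TTGTCT and 11.2% for TTGTGT. They were the aak-2 summit upstream of the short transcript (chrX:16799188-16799288) and the aakg-1 summit at rank 239 (chrIII:12558213-12558313), shown for that match. The nearest base of the match was 36 and 32 bp from the summit. The whole peak of the strongest aakg-1 summit, printed above, also held TTGTCT, read as AGACAA. That match lay more than 50 bp from the summit and is not in these counts.
aak-2 short transcript: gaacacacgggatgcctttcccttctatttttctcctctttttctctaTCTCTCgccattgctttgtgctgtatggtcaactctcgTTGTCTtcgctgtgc
aakg-1 intron: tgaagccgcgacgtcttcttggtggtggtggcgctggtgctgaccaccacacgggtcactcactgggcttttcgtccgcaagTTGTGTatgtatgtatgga

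TGATAA was found around 1 of the 16 summits, at 12549763 in aakg-1, against 4.26% of all windows, and the AT-rich ATATT around 3, against 13.4%. The 100 bp upstream of the 5'-most start of aakg-5 (chrII:9975126-9975225), which hold the only reproducible summit at such a start, contained none of the capitalised motifs.
aakg-5 upstream: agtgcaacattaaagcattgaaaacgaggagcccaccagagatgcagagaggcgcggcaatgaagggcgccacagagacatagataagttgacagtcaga

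**Figure D5:**
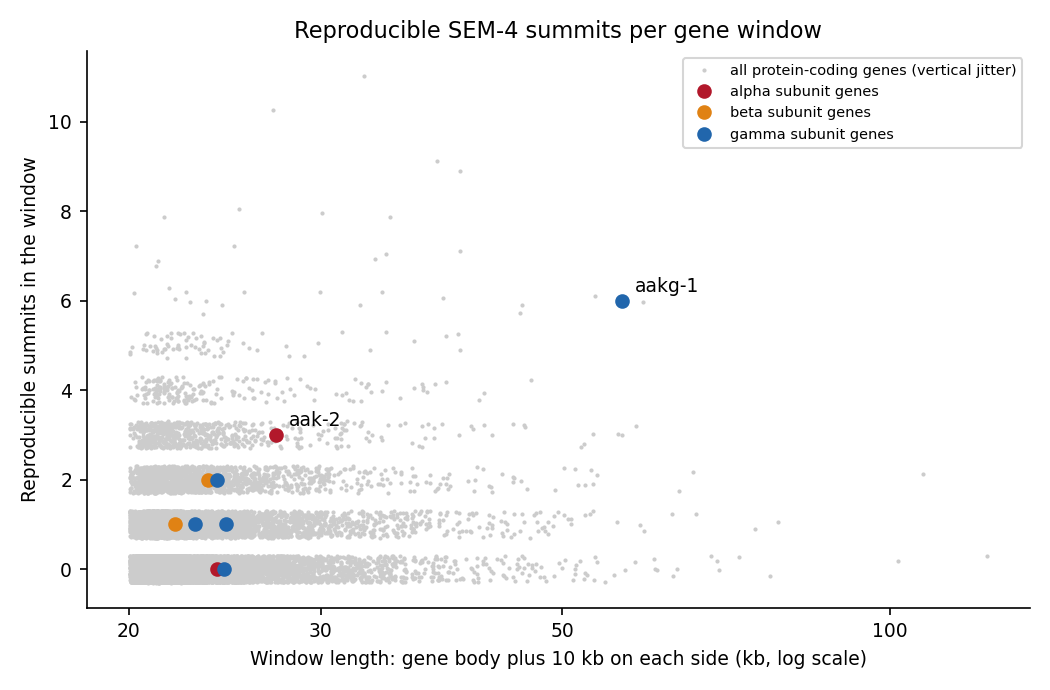
Number of reproducible summits in each window against window length in kb on a log axis, with all 19973 protein-coding genes in grey (jittered vertically) and AMPK genes in colour. The median gene has 0 summits. The point of aakg-1, at 6 summits, is at the right, where windows are long, and aak-2 has 3.

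Window length matters for these counts. The AMPK windows held 0.64 reproducible summits per 10 kb, and 0.518 without aakg-1, against 0.248 over the genome. By gene, aak-2 had 1.098 per 10 kb and aakg-1 1.057, in windows of 27312 and 56738 bp. The values of the other 5 genes with a summit ran from 0.407 for aakg-3 to 0.847 for aakb-1.

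Other genes of the AMPK pathway were searched with the same window. Of 27 genes in 4 lists, 20 had a reproducible summit, against 37.6% of all protein-coding genes, and 12 held the nearest start to one, against 10.2%. Neighbouring genes can share a summit, and the lists were chosen with earlier results known. In the promoter window, 8 of the 27 had one, against 8.71%.

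Among 6 genes that activate AMPK, a summit was found for 2, against 37.6% of all protein-coding genes. They were the MO25-type scaffold genes mop-25.1 (89.1) and mop-25.3 (49.8), and in neither case was the gene's own start the nearest. The start nearest to the mop-25.1 summit was that of hrg-1, a heme transporter gene, 62 bp away. None was found for par-4, the LKB1 kinase gene, its pseudokinase partner strd-1, mop-25.2 or the calcium-calmodulin kinase kinase gene ckk-1. All 5 AMPK-related kinase genes had a summit, against the same 37.6%. The synaptic polarity kinase gene sad-1 led with 80.9, followed by the cell polarity kinase gene par-1 with 62.5, the salt-inducible kinase gene kin-29 with 49.9 and pig-1, of the MELK type, with 48.1. In these 4 genes their own start was the nearest to that summit. The fifth, the kinase gene unc-82, had 43.0 at rank 2206, nearest to the start of tes-1.

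Of 8 genes downstream of AMPK, 7 had a summit, against 37.6% of all protein-coding genes. The forkhead factor gene daf-16 led with 134.9 at rank 174 (ranks 185 and 141 in replicates 1 and 2), then the CREB gene crh-1 with 117.8 at rank 246 (252 and 183). The autophagy regulator gene hlh-30 held 5 summits in its body, the best at 91.5, and the lipase gene atgl-1 had 1 of 90.2. The own start was the nearest for 6 of the 7, the exception being the Mediator subunit gene mdt-15 (51.1, nearest W04D12.1). The acetyl-CoA carboxylase gene pod-2 had none. Of 8 TOR and folliculin genes, 6 had a summit, against the same 37.6%. The best were those in the windows of the folliculin gene flcn-1 (144.3, but 38 bp from the homeobox gene ceh-38), the small GTPase gene rheb-1 (131.2, 282 bp upstream of its own start), ragc-1 (129.3, nearest F40F11.3) and rict-1 (76.1, nearest gfm-1). The summit of rict-1 also lay in the promoter window of rict-1 itself. The Raptor gene daf-15 and raga-1 had none. The rsks-1 summit is the one described above beside aakb-2.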

How the data were processed

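SEM-4 ChIP-seq peak lists from 2 replicates of 1 group were analysed. Per the deposited text file lists, the authors called relaxed peaks on each replicate and on pooled alignments, each with a control, and derived the thresholded list from these by IDR (irreproducible discovery rate). The deposited lists follow the narrowPeak layout. Column 7 is the signal per peak that the authors gave. Column 9 is the −log10 of a q-value in the deposited lists and was not used for ranking. For the aligner, the caller and the IDR threshold, nothing was given in the sources used here. Input libraries were not used, so the control was not analysed here.

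From these lists, summits were placed in windows and assigned to starts of protein-coding transcripts (Ensembl release 115). Peaks were matched between lists by at least 1 shared bp, and of several the nearest summit was taken. Motifs were sought on both strands within 50 bp of summits. Named are the 9 members, genes nearest to reproducible summits in their windows, and up to 4 genes per pathway list by signal. Other genes were named after their values were seen: mtss-1, pdhk-2, psf-1, Y47D3A.14, ceh-38, hrg-1, F40F11.3, gfm-1, unc-82, tes-1, mdt-15, W04D12.1, cel-mir-34, the flanking genes of aakg-1, small non-coding genes and pathway genes without a summit. Members and lists were chosen with earlier results of these data known. Counting was tested on simulated summits. Alternatives were other windows, list sizes, overlaps and single replicates. Lists on ce10 served for 1 lookup. Python 3.11.15, numpy 2.4.6, pandas 2.3.3 and matplotlib 3.10.9 were used.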

Additional observations from a re-analysis of the deposited data

How the results depend on the processing

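No paired analysis was possible because there is 1 group and no test. With windows of 2000 bp on each side, AMPK genes with a reproducible summit fell from 7 to 3 (aak-2, aakg-1 and aakg-5), summits in their windows from 16 to 8, and all protein-coding genes from 7506 to 3190 (16%). With the part of the list above its median signal, all protein-coding genes fell to 4564 (22.9%), while AMPK genes numbered 5. With promoter windows from 500 bp before to 100 bp after a start, AMPK genes with a pooled summit went from 8 to 5, and all protein-coding genes from 38.4% to 29.4%. The best aakg-1 summit, at rank 17, ranked 12 without replicate 1 and 41 without replicate 2. The cause was not tested. Of 39 alternatives, 33 gave a value within 1.5 times the reported one. These alternatives include counts over all protein-coding genes and the rank of the best aakg-1 summit. The top 2490 peaks of 1 replicate alone gave 6 AMPK genes in replicate 1, without aakb-2, and 7 in replicate 2, against 37.2% and 36.8% of all protein-coding genes. Missing read counts limit every value, since no error can be given for a peak.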

Other observations

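The peak upstream of T20F7.1 in the aakg-2 window belonged to a small class. Of 1574 peaks of replicate 1 shared by the top 2490 of both replicates, 4 (0.254%) overlapped no peak of the pooled relaxed list, and this was 1 of them. In the lists on assembly ce10 the same peak, recognised by its signal in replicate 1, ranked 991 and 1505 in the replicates, and no pooled ce10 peak overlapped it. It was noticed after the values were seen.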
